A study of Mus musculus with 3 samples.

Results

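Densely clustered TH2A and TH2B peaks were taken from the 2 peak lists of a native ChIP-seq study of mouse sperm as the peaks with 4 or more other peaks of the same list centred within 100 kb on the same chromosome or sequence. The members were chosen by their measured positions, so their numbers and spacing are a description of the lists and carry no test. This gave 309 members among 1389 peaks: 117 of 210 TH2A peaks (55.7%) and 192 of 1179 TH2B peaks (16.3%). Mature sperm came from the cauda epididymis of BALB/c-129-E mice aged 8 to 12 weeks. Mononucleosomal chromatin released by micrococcal nuclease was precipitated with an antibody against TH2A or against TH2B, and mononucleosomal DNA set aside before precipitation served as the Input. The 3 groups shared strain, age and tissue, and the labels name no treatment and no genetic change. The ChIP reactions of each variant were pooled into 1 library, and the labels give 34000000 unique read pairs for TH2A and about 30000000 each for TH2B and the Input. With 1 library per variant, a difference between the lists cannot be told apart from a difference between 2 libraries or 2 antibodies, and no p-value can be given. The lists hold positions only, so the depth behind a peak is unknown, and every interval below is a 95% Wilson interval that covers counting error only and treats peaks as independent although many share a sequence.

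TH2A and TH2B are the testis-specific variants of histones H2A and H2B that enter chromatin during spermatogenesis, and part of them stays in the sperm nucleus after most histones have been exchanged for protamines. Mouse chromosomes have their centromere at one end. The assembly of each except Y begins with a long run of unknown bases in place of the centromere. Satellite repeats and recent duplications are common next to this run. Tandem arrays of multicopy genes, such as interferon genes, zinc finger genes and the small nucleolar RNA (snoRNA) genes of the Snhg14 host transcript, repeat a unit along the chromosome, so that a sequence in such an array has many near-identical copies.

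Members of a list were joined into a cluster while consecutive centres lay at most 100 kb apart, and TH2A and TH2B clusters that overlapped or lay at most 100 kb apart were joined into a region. The 10 TH2A clusters and 20 TH2B clusters fell into 21 regions: 18 on 10 nuclear chromosomes, 1 on the mitochondrial genome (MT) and 2 on unplaced sequences. Regions on the same chromosome are lettered in order below (chr4 a, chr4 b, chr4 c). A near-identical copy, or copy, of a peak is another place in the mouse reference GRCm38.p6 (mm10) that matches 80% or more of its length with 95% or more of the bases identical. A sequence group joins members that match each other at 80% identity over 50% of the shorter peak.

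Of the 301 members with a sequence, 179 fell into 41 sequence groups of 2 or more. In 11 of these groups the only members were a TH2A and a TH2B peak that overlapped at 1 place, and the other 30 groups, with 157 members, recurred at 2 or more places. The forward strand of the member with the most copies in its region (where several tie, the one with the most copies in the reference, then the leftmost) is shown for 8 regions, up to 300 bases from its start. Capitals mark 15-mers that recur, on either strand, in every member of the sequence group they were found in. Because each 15-mer was picked as the most frequent of its group, its count is a description. The first comes from chr4 a and shares its 15-mer TGGAGCACTGTGACA with the second, from chr16, where it stands on the other strand. The third, from chr8 c, holds ACAGGTGGAATGAGT on the other strand, and the fourth, from the Snhg14 array, holds AAACCAGAGGCCCTA. The other 4 show the 31-bp repeat at the end of chrX, the interferon zeta array, the array on chr6, and a peak in an exon of the pseudogene Pisd-ps2 that has 2 copies, both in other regions.
chr4 a, TH2B, chr4:3050101-3050400: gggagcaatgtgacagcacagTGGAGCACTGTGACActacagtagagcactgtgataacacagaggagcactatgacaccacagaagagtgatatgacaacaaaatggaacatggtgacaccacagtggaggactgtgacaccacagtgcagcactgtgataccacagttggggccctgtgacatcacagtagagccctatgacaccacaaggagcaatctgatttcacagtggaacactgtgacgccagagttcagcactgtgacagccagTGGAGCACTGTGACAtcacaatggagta
chr16, TH2B, chr16:3234111-3234326: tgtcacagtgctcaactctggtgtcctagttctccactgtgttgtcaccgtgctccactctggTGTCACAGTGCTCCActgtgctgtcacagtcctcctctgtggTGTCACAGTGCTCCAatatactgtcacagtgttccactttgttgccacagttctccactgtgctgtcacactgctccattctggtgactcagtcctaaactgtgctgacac
chr8 c, TH2B, chr8:20666405-20666604: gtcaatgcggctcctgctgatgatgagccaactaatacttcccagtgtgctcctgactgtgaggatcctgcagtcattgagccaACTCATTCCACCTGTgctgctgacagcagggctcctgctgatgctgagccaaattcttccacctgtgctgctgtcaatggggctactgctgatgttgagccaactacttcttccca
chr7 Snhg14, TH2B, chr7:59726292-59726507: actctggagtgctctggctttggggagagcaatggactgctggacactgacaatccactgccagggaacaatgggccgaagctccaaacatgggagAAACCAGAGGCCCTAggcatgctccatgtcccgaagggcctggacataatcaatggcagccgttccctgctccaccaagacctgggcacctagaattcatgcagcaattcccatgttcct
chrX, TH2B, chrX:170811242-170811541: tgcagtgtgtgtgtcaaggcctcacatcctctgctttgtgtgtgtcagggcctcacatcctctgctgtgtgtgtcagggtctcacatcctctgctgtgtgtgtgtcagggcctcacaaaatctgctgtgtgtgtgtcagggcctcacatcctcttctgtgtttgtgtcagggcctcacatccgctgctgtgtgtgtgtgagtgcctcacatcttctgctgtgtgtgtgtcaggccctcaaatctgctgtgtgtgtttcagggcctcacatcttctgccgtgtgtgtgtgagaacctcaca
chr4 b interferon zeta, TH2B, chr4:88785103-88785350: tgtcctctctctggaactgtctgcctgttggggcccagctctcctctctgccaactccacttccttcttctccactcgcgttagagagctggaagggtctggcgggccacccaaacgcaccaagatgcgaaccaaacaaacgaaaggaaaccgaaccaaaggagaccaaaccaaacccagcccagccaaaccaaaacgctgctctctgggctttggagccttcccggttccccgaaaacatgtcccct
chr6, TH2B, chr6:114508650-114508901: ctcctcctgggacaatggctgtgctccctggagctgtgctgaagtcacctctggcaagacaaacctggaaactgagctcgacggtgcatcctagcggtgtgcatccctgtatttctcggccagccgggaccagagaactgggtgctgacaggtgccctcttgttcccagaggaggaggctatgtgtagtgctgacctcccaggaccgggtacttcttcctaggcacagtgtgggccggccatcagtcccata
chr17 a Pisd-ps2, TH2B, chr17:3077816-3078020: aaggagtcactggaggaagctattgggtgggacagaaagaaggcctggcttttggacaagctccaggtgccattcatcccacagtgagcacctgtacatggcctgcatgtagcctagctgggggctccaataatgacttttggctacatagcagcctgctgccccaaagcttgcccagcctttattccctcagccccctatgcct

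The 15-mer TGGAGCACTGTGACA was present in all 38 peaks of the largest sequence group, 8 of TH2A and 30 of TH2B, on chr4, chr16 and chr17. It was also in 7 TH2A peaks and 3 TH2B peaks that were not members. Of 8824592 consecutive 300-bp windows of the nuclear chromosomes without unknown bases, 331 held it on either strand (0.00375%). ACAGGTGGAATGAGT was in all 28 peaks of the next group, 2 of TH2A and 26 of TH2B, all on chr8, and in 156 of the windows (0.00177%). AAACCAGAGGCCCTA was in all 6 peaks of a group in Snhg14, 1 of TH2A and 5 of TH2B, and in 50 of the windows (0.000567%). None of these 3 15-mers occurred in a member outside its group.

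Members lay close together in both lists. Consecutive TH2A members of a cluster were a median of 4768 bp apart (quartiles 1494 and 11367 bp, 107 spacings) and TH2B members 3433 bp apart (quartiles 1122 and 9633 bp, 172 spacings). Spacings under 1000 bp made up 19.6% of the TH2A and 22.1% of the TH2B spacings. The members were 200 to 958 bp wide, with a median of 270 bp for TH2A and 252.5 bp for TH2B. The widest was a TH2A peak of 958 bp in an intron of Sfi1 on chr11, and the widest TH2B member, of 911 bp, lay outside genes on chr4 a. The threshold left 15 TH2A and 24 TH2B peaks just inside, with exactly 4 other peaks, and 22 TH2A and 25 TH2B peaks just outside, with 3. At the dense end, 10 TH2A peaks had 19 other peaks within 100 kb and 2 TH2B peaks had 29. By contrast, 716 TH2B peaks and 36 TH2A peaks had none.

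**Figure D1:**
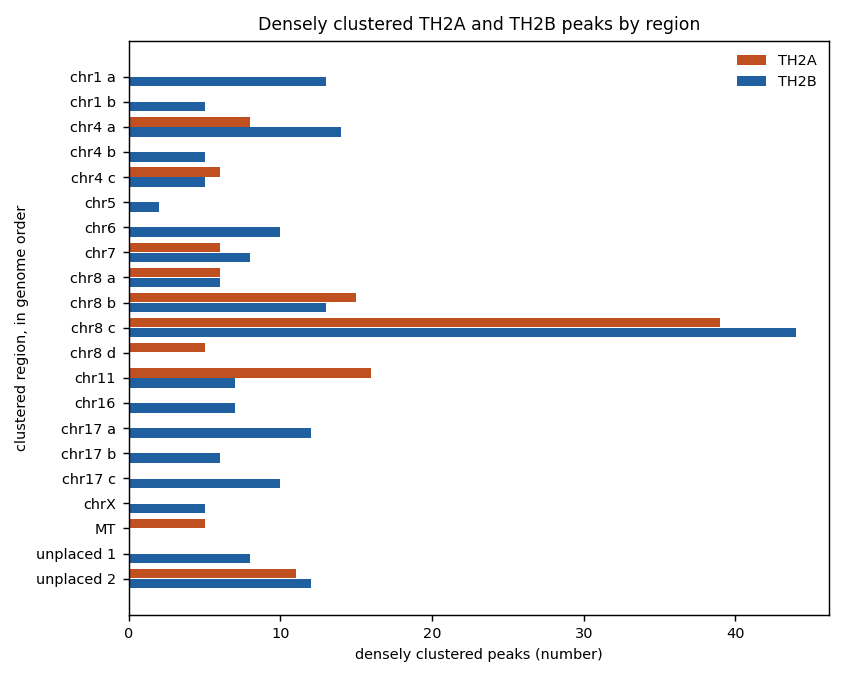
Number of densely clustered peaks (x axis) in each of the 21 regions in genome order (y axis), with TH2A and TH2B bars side by side. The chr8 c region holds the most of both lists, 39 TH2A and 44 TH2B members, and 11 regions hold TH2B members only.

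Members of both lists were found in 8 regions, of TH2B only in 11, and of TH2A only in 2 (chr8 d and MT). In 5 of the 11 TH2B-only regions the TH2A list held no peak at all: chr4 b, chr6, chr17 b, chr17 c and chrX. The 4 regions on chr8 together held 65 of the 117 TH2A members (55.6%, interval 46.5 to 64.2%) and 63 of the 192 TH2B members (32.8%, interval 26.6 to 39.7%).

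A satellite-like repeat of 21 bp was shared by 3 regions near the centromeric ends of chr4, chr16 and chr17. The region chr4 a (chr4:3050101-3085671, 35571 bp) began 100 bp after the first sequenced base and held 8 TH2A and 14 TH2B members. All 22 belonged to the largest sequence group. Bases 21 bp apart were the same at 53.3% of positions in the region, beside a median of 25.1% over all distances tested, and each of the 22 members lay in a 2000-bp stretch with the 21-bp period. TH2A members were spaced by a median of 2427 bp and TH2B members by 1713 bp, and 7 TH2A and 6 TH2B members overlapped a peak of the other list. No member of chr4 a had a near-identical copy, and no gene lay under any of them.

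The region on chr16 (chr16:3231609-3241272, 9664 bp) began 34 bp from a run of unknown bases and had the same 21-bp period, with 64.8% of bases alike. Its 7 TH2B members were spaced by a median of 1013 bp, a density of 72.4 per 100 kb. The TH2A list had 4 peaks in it, too few for the rule, and 4 of the 7 TH2B members overlapped one of them. The region chr17 a (chr17:3008033-3102667, 94635 bp) began 8032 bp after the first sequenced base, held 12 TH2B members at a median spacing of 4231 bp, and had 40.3% of bases alike at 21 bp. The 9 members nearest its centromeric end belonged to the same sequence group, and 4 TH2A peaks lay in the region. This sequence group held 38 members in all, and 37 of them lay in a stretch where at least 50% of bases recurred at 21 bp.

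A tandem repeat also underlay the cluster at the far end of chrX. Its 5 TH2B members (chrX:170810726-170860650) ended 20649 bp before the last sequenced base and lay 2214 bp from a run of unknown bases. Bases 31 bp apart were alike at 73.4% of positions, all 5 members formed 1 sequence group, and 91.7% of the region was masked as repeat. GENCODE had no gene there, and no RefSeq gene lay under a member. Consecutive members were 571 to 30283 bp apart, in 3 places along the array.

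The chr8 block held 4 regions within 1135494 bp, from 19700079 to 20835572. The region chr8 a (chr8:19700079-19730967) held 6 TH2A and 6 TH2B members, chr8 b (chr8:19933042-20155011) held 15 and 13, chr8 c (chr8:20260160-20704220) held 39 and 44, and chr8 d (chr8:20815398-20835572) held 5 TH2A members beside 3 TH2B peaks, too few for the rule. Runs of unknown bases were close by: chr8 c enclosed one of 50000 bases, chr8 b lay 2539 bp and chr8 d 3219 bp from the nearest, and chr8 a lay 72161 bp from it. All 128 members of the block had at least 1 copy. Stretches of 1000 bp or more that matched another stretch of the same region at 90% identity covered 97.4% of the sequenced bases of chr8 c and 55.1% of chr8 b, in both orientations, and none of chr8 a or chr8 d.

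Members of the 4 chr8 regions had copies in one another's regions, in part. Of the 12 members of chr8 a, 6 had a copy in chr8 b, and 5 of the 28 of chr8 b had one in chr8 d. All 12 members of chr8 a, all 28 of chr8 b and all 5 of chr8 d had a copy inside chr8 c. Of the 83 members of chr8 c, 65 had a copy in chr8 b, 42 in chr8 a and 18 in chr8 d. How often a copy had a peak of the same list on it varied with the pair of regions. In chr8 c, the region with the most members, this held for 9 of the 12 members of chr8 a, 17 of the 28 of chr8 b and 4 of the 5 of chr8 d. For chr8 c members with a copy elsewhere it held for 27 of 65 in chr8 b, 14 of 42 in chr8 a and 12 of 18 in chr8 d. It held for 3 of 6 from chr8 a to b, 3 of 4 from a to d, 3 of 9 from b to a and 1 of 4 from d to a. Between chr8 b and d it held for 0 of 5 in each direction. Among the recurrent sequences, 1 sequence group of 6 peaks had 3 TH2A and 3 TH2B members spread over chr8 a, b and c, and all 6 overlapped a peak of the other list, so that they marked 3 places.

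In the same block the TH2B list marked a tandem repeat that the TH2A list hardly marked. Among TH2B members, 8 of 13 in chr8 b and 18 of 44 in chr8 c lay in a 2000-bp stretch where at least 50% of bases recurred at a fixed distance, against 0 of 15 and 1 of 39 TH2A members. All but 1 of the 28 peaks of the second sequence group lay in such a stretch. The group had 26 TH2B and 2 TH2A peaks, a median repeat distance of 156 bp (51 to 360 bp) and a median of 180.5 copies in the reference. The TH2B member with the most copies in chr8 c had 58 there, spaced by a median of 524 bp, and 18 of the 58 lay under a TH2B peak and 1 under a TH2A peak. The median copy number was 5, 6 and 5 for TH2A members of chr8 a, b and c and 4.5, 168 and 10 for TH2B members. A TH2A member of chr8 b (chr8:19933788-19934039) stood apart with 1910 copies, 1817 of them on other chromosomes or sequences.

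Predicted genes and pseudogenes filled the block. In chr8 c the lincRNA Gm26804 held 18 TH2A and 12 TH2B members, the transcribed pseudogene 2610005L07Rik 4 and 2, the predicted coding gene Gm21119 3 and 1, Gm15319 and the pseudogenes 6820431F20Rik and Gm21112 1 and 1 each, and the pseudogene Gm21092 2 TH2A members. In chr8 a the predicted coding gene 4930467E23Rik held 1 member of each list, as did the pseudogene Gm20778 in chr8 b. By the RefSeq models 4930467E23Rik held 3 of each list, and Gm20778 held 2 TH2A and 1 TH2B. In chr8 c they gave 3 TH2A and 2 TH2B members to Gm21119, 2 and 2 to Gm21112, and 1 and 0 to 6820431F20Rik. Of the chr8 members, 30 of 65 TH2A and 17 of 63 TH2B lay in an annotated gene. The annotation of near-identical copies is itself uncertain, so these counts depend on which copies were given a gene model.

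**Figure D2:**
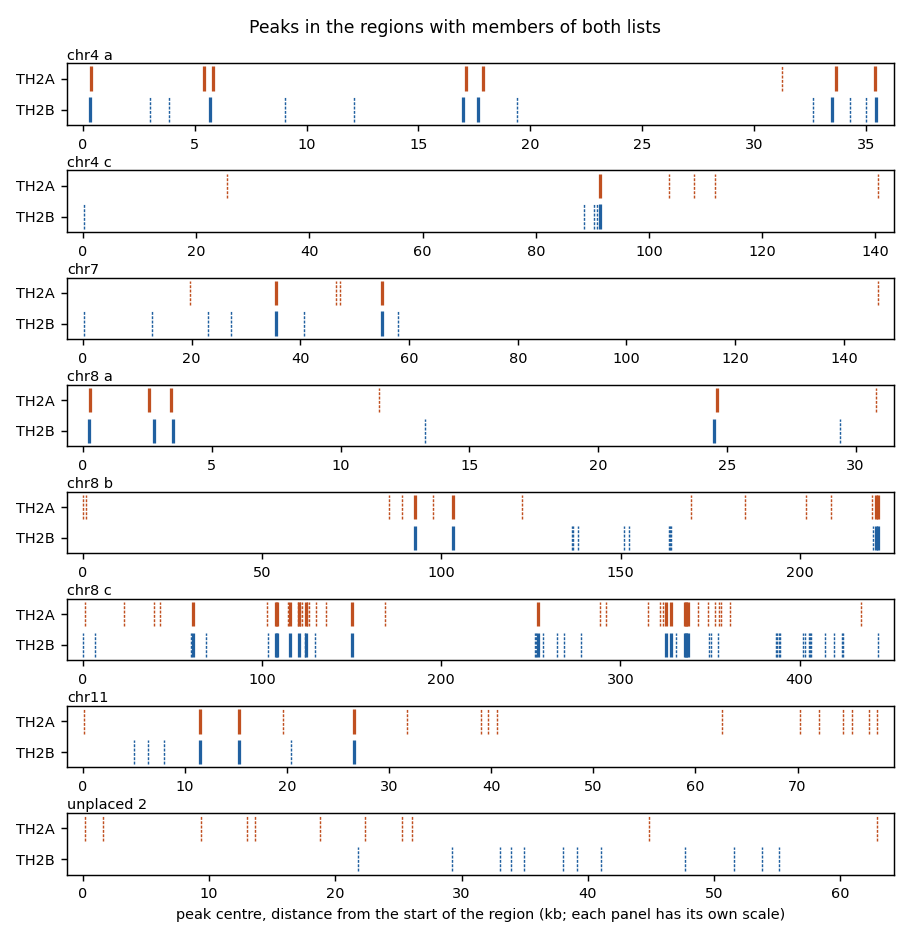
Peak centres in the 8 regions with members of both lists, as distance from the start of the region in kb, with TH2A above and TH2B below in each panel. Solid thick lines are members that overlap a peak of the other list and thin dashed lines are members that do not. In chr4 a 7 of 8 TH2A members overlapped a TH2B peak, whereas in the second unplaced sequence none of 11 did.

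Duplicated sequence joined 3 regions. By the copies of members, chr11 and chr17 a shared sequence of Pisd pseudogenes. The second unplaced sequence shared this and part of Sfi1 with chr11. Sfi1 encodes a centrosomal protein, and Pisd a mitochondrial enzyme that makes phosphatidylethanolamine. On chr11 (chr11:3122132-3200061, 77930 bp), 22131 bp after the first sequenced base, 16 TH2A and 7 TH2B members were spaced by medians of 3786 and 3702 bp. The last TH2B member ended at position 3148797, and the TH2A members went on to the end of the region. The 9 TH2A members up to position 3162795 each had 1 to 3 copies and the 7 from position 3184246 on had none. By the GENCODE models, 3 TH2B members lay in Pisd-ps1, 4 TH2B and 10 TH2A members in Sfi1, and 6 TH2A members in Drg1, a GTP-binding protein gene whose model overlaps the start of Sfi1. RefSeq models, in which Sfi1 reaches farther, placed 15 TH2A members in Sfi1 and none in Drg1. The translation regulator gene Eif4enif1, on the other strand, had 3 TH2A members within 5 kb.

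The second unplaced sequence carried the counterpart of part of the chr11 region. Its region (positions 201 to 63242) held 11 TH2A and 12 TH2B members, with TH2A members spaced by a median of 3582 bp and TH2B members by 2279 bp. RefSeq places the pseudogene Pisd-ps3 there, with 2 TH2B members in it, beside a longer transcribed pseudogene with 8 TH2A and 10 TH2B members. GENCODE models a coding gene, AC149090.1, over the place of Pisd-ps3, with 2 TH2B members in it. Of the 23 members, 20 (10 of each list) had a copy on chr11, and of the 23 chr11 members 15 (8 TH2A and all 7 TH2B) had a copy there. None of these copies lay under a peak of either list, so the peaks stood at different places of the shared sequence in the 2 regions. No TH2A and TH2B members overlapped on the unplaced sequence, where each TH2A member lay a median of 7814 bp from the nearest TH2B peak. In chr17 a, 2 TH2B members in Pisd-ps2, the exon printed above among them, had copies both on chr11 and on the unplaced sequence. Of the 3 TH2B members in Pisd-ps1, the one at chr11:3129922-3130154 had 3 copies and the other 2 had 2 copies each.

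The interferon zeta array on chr4 b was marked by TH2B peaks at about the spacing of its genes. Interferon zeta, or limitin, is a type I interferon, and the array lies in the type I interferon gene cluster. The 5 TH2B members (chr4:88785103-88800874, 15772 bp) were spaced by a median of 2893 bp, close to the median of 2928 bp between the start codons of the 14 coding genes of the array. Each member had exactly 14 copies, all in the array, and no TH2A peak lay on it. The 3 centromeric members lay before the coding sequence, centred -482.5 bp from the start codon of Gm13276, -519 bp from that of Gm13277 and -538 bp from that of Gm13278, where negative values lie upstream. The 2 others were centred 495 bp after the start codon of Gm13279 and 437 bp after that of Gm13285. The 5 members formed 2 sequence groups, of 3 and 2 peaks, that matched these 2 positions. For 9 of the 14 genes no member was nearest to the start codon. By the GENCODE models Gm13279 and Gm13285 held 1 member each. RefSeq models placed 1 member in each of Gm13276, Gm13277, Gm13278, Gm13279 and Gm13285. Ifnz itself had 2 members within 5 kb, and the lincRNA Gm26525, on the other strand, held 3. Of 30 places with a member or a copy of one, 25 had no peak.

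The region on chr6 was an array without GENCODE genes. Its 10 TH2B members (chr6:114508650-114633993, 125344 bp) were 574 to 52397 bp apart, and each had 55 to 60 copies, all in and around the region. The member printed above recurred at 61 places, 2334 to 2516 bp apart (median 2440 bp), and none of the 60 other places had a peak. The 10 members fell into 5 sequence groups, the largest of 4 peaks. Taking all members together, 10 of 239 places with a member or a copy lay under a TH2B peak. GENCODE had no gene in the region, and no RefSeq gene lay under a member. The TH2A list had no peak on chr6. Internal matches covered 100% of the region, 15.3% of the same length before it and 2.25% after it.

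The Snhg14 array on chr7 was marked in both lists. Snhg14 is the imprinted host transcript of the snoRNA repeats of the Prader-Willi and Angelman region. Its region (chr7:59713627-59859991, 146365 bp) held 6 TH2A and 8 TH2B members, of which 2 and 2 overlapped, and enclosed a run of 50000 unknown bases. The 38 snoRNA gene models in it were a median of 2526 bp apart, and bases were most alike at a distance of 2513 bp. The 14 members lay 0 to 890 bp from the nearest snoRNA gene (median 171.5 bp), and 1 of them overlapped it. Whether members lay closer to these genes than other positions of the array do was not tested. A pair of TH2B members, the printed one and the one at chr7:59736444-59736663, both lay 38 bp upstream of theirs. Members had 60 to 69 copies for TH2A and 52 to 69 for TH2B. Of 270 places with a TH2A member or a copy of one, 6 had a TH2A peak, 6 had a TH2B peak only and 258 had none.

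**Figure D3:**
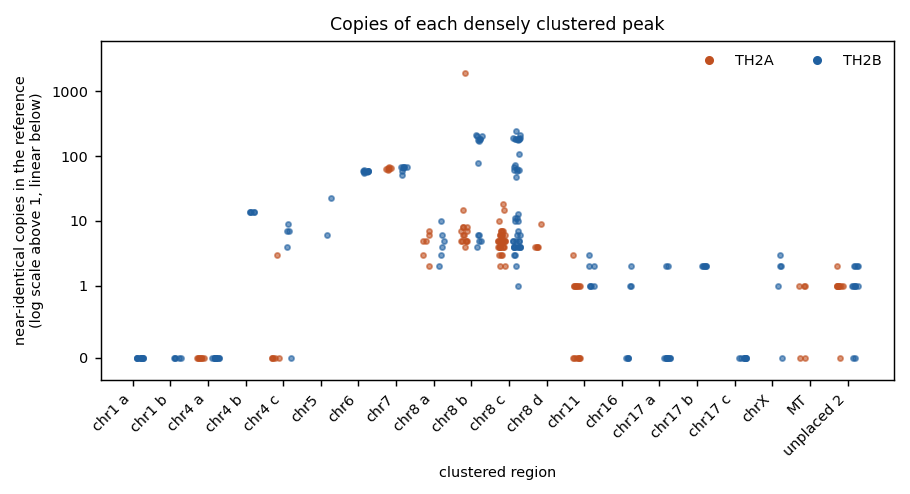
Near-identical copies in the reference (y axis, log scale above 1 and linear below) of each member, by region and list, for the 20 regions whose sequence was matched. The chr6 and chr7 members sit between 52 and 69 copies, the chr4 b members at 14, and the members of chr1 a, chr1 b, chr4 a and chr17 c at 0.

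Members with copies were also found on chr4 c, chr5 and chr17 b. On chr4 c (chr4:147310575-147451115, 140541 bp), in the zinc finger gene cluster of distal chromosome 4, 6 TH2A and 5 TH2B members all lay in introns of the lincRNAs C230088H06Rik and Gm26624, and by the GENCODE models 1 TH2B member lay in a zinc finger gene, Zfp988. RefSeq models placed the same TH2B member in both Zfp988 and Zfp978, which overlap, and 1 TH2A member each in Zfp978 and Zfp982. A TH2A and a TH2B member overlapped there. The median copy number was 7 for TH2B and 0 for TH2A, with 4 of 5 and 1 of 6 members having a copy. On chr5 (chr5:15529048-15550312) 2 TH2B members, with 6 and 23 copies, overlapped TH2A peaks that were not members, and both lay in the antisense gene Gm21847. The one with 23 copies also lay in an exon of the predicted coding gene Gm21190, centred 74.5 bp from its start site. Each had exactly 4 other TH2B peaks within 100 kb, and of these only the other of the pair was a member. On chr17 b (chr17:6391888-6501655, 109768 bp) 6 TH2B members each had 2 copies. Of the 6, 4 lay in the pseudogene Tmem181b-ps and 5 in the lincRNA Gm26848, and the dynein light chain gene Dynlt1b had a member within 5 kb.

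In 4 regions no member had a copy: chr1 a, chr1 b, chr4 a and chr17 c. The chr1 a region (chr1:88218145-88286734) held 13 TH2B members, each with the other 12 within 100 kb. By the GENCODE models, 1 lay in the last exons shared by the Ugt1a genes, 9 in Mroh2a, 1 in Hjurp and 2 in Trpm8. RefSeq models placed no member in Trpm8. Of the 13, 10 lay in exons and 1 overlapped a TH2A peak, the only one of that list in the region. The chr1 b region (chr1:171507163-171559459) held 5 TH2B members, with 1 in an exon of the intelectin gene Itln1, 1 in an exon of the immune receptor gene Cd244a and 1 within 5 kb of the RNA export factor gene Alyref2. In chr17 c (chr17:27240664-27390094, 149431 bp) 10 TH2B members were spaced by a median of 13141 bp, and 8 of them lay in noncoding RNA genes: 3 in Gm49794, 2 in Gm10505, 2 in AC141882.1 and 2 in AC141882.2, which overlap. No members of chr1 a, chr1 b or chr17 c shared a sequence group.

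On molecules shorter than 100 kb, every peak counts every other. This holds for MT, where the 5 TH2A members (positions 5660 to 16016) lay 1213 to 5317 bp apart in mt-Co1, mt-Nd4, mt-Nd5 and mt-Cytb, genes of the respiratory chain, and, for 1 of them, in the noncoding stretch after the last transfer RNA gene. The TH2B list had no peak on MT. Of the 5, 3 had 1 nuclear copy each, on chromosomes 2, 12 and 13, and no peak of either list lay on these copies. It also holds for the first unplaced sequence, where 8 TH2B members (positions 1191 to 12162) were spaced by a median of 1040 bp and 1 of them overlapped a TH2A peak. That sequence could not be matched to the reference, so its members have no sequence values here.

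TH2A and TH2B peaks in the same region, members or not, differed in median GC content, in some regions by little. In 14 regions that held peaks of both lists, the median GC content was higher for TH2B in 13, the exception being chr1 a with 1 TH2A peak. Over the central 200 bp of each peak the number was 13 as well. Restricted to peaks that did not overlap the other list, TH2B was higher in 10 of 11 regions. On the second unplaced sequence, TH2A members ranged from 44.0% to 52.0% (median 47.7%) and TH2B members from 52.9% to 58.8% (median 55.1%), without overlap. In chr8 a the ranges were 46.8% to 48.7% and 52.2% to 57.0%, and in chr4 c 46.6% to 52.6% and 52.9% to 59.2%, again apart. In chr8 c the medians were 47.8% and 53.6% and the ranges overlapped. In the 3 regions with the 21-bp repeat the TH2A and TH2B medians were 50.4% and 50.7% in chr4 a, 49.8% and 50.3% in chr16, and 49.1% and 52.3% in chr17 a. Members that overlapped the other list lay between, at a median of 51.0% for TH2A and 52.5% for TH2B, beside 47.2% and 54.4% for members that did not.

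**Figure D4:**
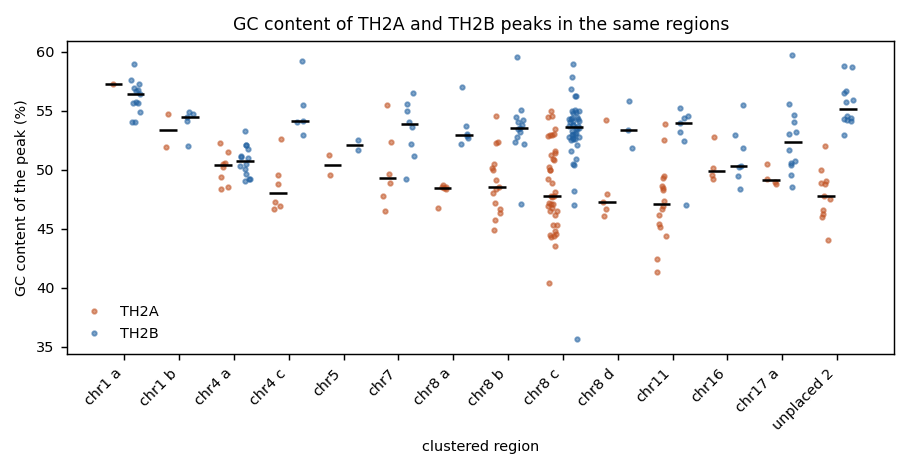
GC content in percent (y axis) of every TH2A and TH2B peak in the 14 regions with peaks of both lists and a known sequence (x axis), with black lines at the medians. The TH2B median is above the TH2A median in 13 of the 14 regions.

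TH2B members differed more from the other peaks of their list than TH2A members did in most measures. The other peaks of the 2 lists were themselves unlike. Of the 987 other TH2B peaks, 716 had no peak of their list within 100 kb, against 36 of the 93 other TH2A peaks. A further 22 of the other TH2A peaks lay just outside the rule, with 3 other peaks. Whether this accounts for the smaller TH2A differences was not tested. Near-identical copies were present for 67.4% of TH2B members (124 of 184, interval 60.3 to 73.7%) and 18.1% of the other TH2B peaks (interval 15.8 to 20.6%). For TH2A the shares were 80.3% (94 of 117, interval 72.2 to 86.5%) and 56.3% (interval 45.9 to 66.3%). Without chr8 the TH2A shares were 55.8% and 56.5%, so the TH2A difference rested on the chr8 block. The TH2B shares without chr8 were 50.4% and 17.2%. For TH2B, 30.4% of members and 7.08% of the other peaks had 10 or more copies, and for TH2A 9.40% and 19.5%.

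Overlap with the other list was found for 45 of 192 TH2B members (23.4%) and 22 of 987 other TH2B peaks (2.23%, interval 1.48 to 3.35%), so the clusters held 45 of the 67 TH2B peaks that overlapped a TH2A peak. Of TH2A, 36 of 117 members (30.8%, interval 23.1 to 39.6%) and 31 of 93 other peaks (33.3%, interval 24.6 to 43.4%) overlapped a TH2B peak. Tandem repeats, by the 50% rule above, underlay 32.6% of TH2B members and 1.85% of the other TH2B peaks, and 7.69% and 16.1% for TH2A.

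Clusters were also close to unsequenced bases. A run of at least 1000 unknown bases lay within 50 kb of 38.4% of TH2B members (66 of 172, interval 31.4 to 45.8%), 2.89% of the other TH2B peaks, and 0.778% of all sequenced bases of the nuclear chromosomes. TH2A gave 38.6% for members (39 of 101) and 29.3% for the other peaks, with overlapping intervals. Of the 18 nuclear regions, 9 lay within this distance.

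Genes and start sites were less common under TH2B members. Exons held 19.8% of TH2B members (38 of 192) and 52.2% of the other TH2B peaks, no gene lay under 60.4% and 27.4%, and a transcription start site (TSS) lay within 5 kb of 34.2% and 74.3%. TH2A members and other TH2A peaks differed little, with 17.1% and 18.3% in exons and 51.3% and 53.4% within 5 kb of a TSS. The median GC content was 54.0% for TH2B members and 60.5% for the other TH2B peaks, and the observed over expected CpG ratio 0.121 and 0.540. For TH2A the GC medians were 48.3% and 48.8%, and the CpG ratios 0.130 and 0.141. Clustered TH2B peaks thus had a CpG ratio near that of the TH2A peaks and a median GC content between that of the TH2A peaks and that of the other TH2B peaks.

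**Figure D5:**
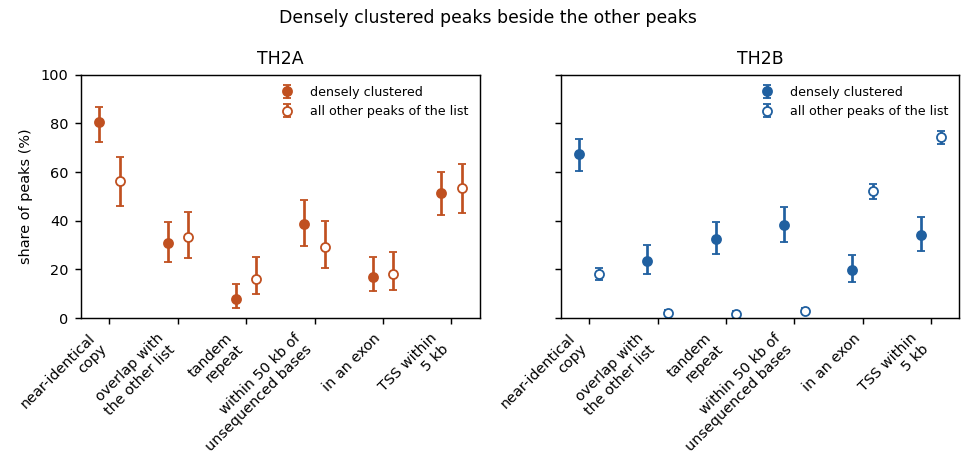
Share of densely clustered peaks (filled) and of all other peaks of the same list (open) with each feature in percent, TH2A on the left and TH2B on the right, with 95% Wilson intervals as error bars. For TH2B the intervals of the filled and open points are apart for all 6 features, and for TH2A for the near-identical copy only, 80.3% beside 56.3%.

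Of the 30 sequence groups that recurred at 2 or more places, 14, with 116 members, contained members of both lists, and 17 spanned more than 1 region. A copy inside another clustered region was found for 82 of 117 TH2A members and 79 of 184 TH2B members, and for 34 and 40 of these it lay under a peak of the same list. All of the latter were on chr8.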

How the data were processed

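Native ChIP-seq peak lists for TH2A and TH2B, each called against the Input, were used as deposited. Per the labels and the study's methods, the authors trimmed the read pairs (Trimmomatic), used BWA for alignment to the mm10 build and called peaks with MACS2 2.1.3. The deposited lists give chromosome, start, end and width, with no counts, score or p-value. How reads that match several copies were placed is not given in the sources used here, so the position of a peak among near-identical copies is uncertain. The members and lists were chosen with earlier results of these data known.

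Starts and ends were used as given, as positions counted from 1. Peaks were placed on GENCODE M21 genes, with RefSeq models beside them, and read from GRCm38.p6. Copies and sequence groups were found with BLAST 2.17.0 (word sizes 28 and 11), and intervals were computed with SciPy 1.17.1. Overlap needed 1 bp. A peak was in a tandem repeat when 50% or more of bases within 2000 bp around it recurred at a distance of 10 to 400 bp. Genes were named where 2 or more members lay in them or where a coding gene other than a Gm or Rik model had a member within 5 kb, and a few more once their values had been seen. The counting, overlap and repeat steps were tested on simulated data. Alternatives changed the window, the minimum number of peaks, the overlap, the identity, the gene set and the distance to unknown bases.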

Additional observations from a re-analysis of the deposited data

How the results depend on the processing

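Of 62 alternative values, 46 stayed within the limits set and 16 did not. The limits were 1.5 times for counts, the Wilson interval for shares and the quartiles over peaks for median GC content. Asking for 3 other peaks gave 16 TH2A clusters, and asking for 6 gave 6 TH2A and 13 TH2B clusters, while over all alternatives to the window, the minimum, merging and the sequences used, the number of clustered peaks lay between 80 and 139 for TH2A and between 131 and 221 for TH2B. The share of members overlapping the other list was 22.2% for TH2A and 17.2% for TH2B when 50% of both peaks had to overlap, and 42.7% and 32.3% when centres within 1000 bp sufficed. A copy at 98% identity was found for 71.8% of TH2A members. Counting protein-coding genes only, no gene lay under 79.5% of TH2A and 85.4% of TH2B members. The following were chosen after seeing the data. Without chromosome 8, 55.8% of TH2A and 50.4% of TH2B members had a copy. Unknown bases lay within 10 kb of 9.90% and within 200 kb of 94.1% of TH2A members, and of 12.2% and 68.6% of TH2B members. A stricter peak threshold was not run, since the lists hold no score. No paired analysis was possible because each variant has 1 library. That single library, the missing read counts and the unknown placement of reads among copies limit every value here.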
